A study of Mus musculus with 49 samples.

Results

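Leukaemias that the MLL-AF9 fusion (MA9) started in cells other than granulocyte-macrophage progenitors were compared with normal granulocyte-macrophage progenitors (GMP), to see which genes of the GMP programme the leukaemias kept and which they changed. The leukaemias were chosen by their sample labels: 3 began in short-term haematopoietic stem cells (STHSC:MA9), 6 in multipotent progenitors (MPP:MA9) and 4 in common myeloid progenitors (CMP:MA9). With 5 GMP samples they make 18 of the 49 samples of the study, which its methods describe as independent biological replicates. Its figure legends add that every sample is a separate mouse and that the mice came from replicate experiments. Which samples share an experiment is not in the sample titles and was not modelled. The genes are the 12001 of 38253 in the deposited table whose mean over these 18 samples reached 1 FPKM (fragments per kilobase of transcript, scaled to the number of mapped fragments). Leukaemias started in GMP (GMP:MA9, n = 6) enter only where they are named.

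The labels give wild-type C57BL/6J mice of 6 to 12 weeks and bone marrow as the tissue in all these groups. Per the study's methods, the progenitors were sorted from marrow, transduced with a retrovirus carrying MLL-AF9 and green fluorescent protein (GFP), and given to sublethally irradiated recipients. Bulk GFP+ cells from the spleen of the leukaemic recipients were then sequenced. GMP were sorted directly from normal marrow as Lin- cells that were c-Kit+, CD34+ and FcγR+ and lacked Sca-1 and CD150, were not transduced, and never passed through a recipient. The leukaemia, the organ, the transplantation, the time from transplantation to illness and the gate therefore cannot be told apart in any difference from GMP. Levels of c-Kit, CD34, FcγR and the lineage antigens of the gate (among them CD11b, encoded by Itgam) were set by the sort. The leukaemic cells were gated on GFP without a stage marker, and in such bulk samples fewer cells expressing a gene and less RNA per cell cannot be told apart.

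GMP are committed marrow progenitors that give rise to neutrophils and monocytes, and they are at the stage at which the proteins of the primary (azurophil) granules are made. The secondary granules and the surface receptors of mature phagocytes follow later, when cells leave the cell cycle. MLL-AF9 joins the DNA-binding part of a histone methyltransferase to a partner from the elongation machinery, holds the HOXA genes and MEIS1 active, and produces acute myeloid leukaemia of monocytic character.

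The GMP samples expressed genes that mark GMP and almost no Slamf1, but Ly6a, which encodes Sca-1, was not absent. Mpo and Elane, which encode enzymes of the primary granules, measured 10745–14354 and 3078–6449 FPKM, Kit 50.6–67.4 FPKM, and Slamf1 (CD150) did not exceed 0.2 FPKM. Ly6a, whose protein the gate excludes, measured 4.73–9.74 FPKM in GMP and 1.61–17.17 FPKM in the leukaemias. The GMP samples were also more alike than the leukaemias were: the mean correlation of a sample with the others of its group, taken across genes, which are not independent replicates, was 0.976 to 0.981 in GMP and 0.926 to 0.957 in the leukaemias. Sequencing depth could be recovered only in relative terms and ran from 0.563 of the median sample (STHSC:MA9 replicate 1) to 1.56 (GMP replicate 3). STHSC:MA9 held the 2 shallowest samples, so its low values are the least precise. No 2 samples of the same group held identical values.

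A gene was called higher or lower when its Benjamini-Hochberg adjusted p in limma was below 0.05 and its log2 change exceeded 1, where the change is the mean of the 3 leukaemia group means minus the GMP mean on the log2(FPKM + 1) scale. Every log2 change below is given ± its standard error, and a range of values is given as lowest–highest. By this rule 2692 genes (22.4% of those tested) were called, 1774 of them higher (14.8%) and 918 lower (7.65%). Counts of list members below are to be read beside these shares over all genes. At the same thresholds 2296 genes (19.1%) were called in STHSC:MA9, 3194 (26.6%) in MPP:MA9 and 2828 (23.6%) in CMP:MA9, all against the same 5 GMP samples. In 3775 genes (31.5%) the 13 leukaemias and the 5 GMP samples did not overlap at all, and 2080 of these were called. The changes reached far: 143 genes rose and 39 fell by more than 3 on the log2 scale.

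**Figure D1:**
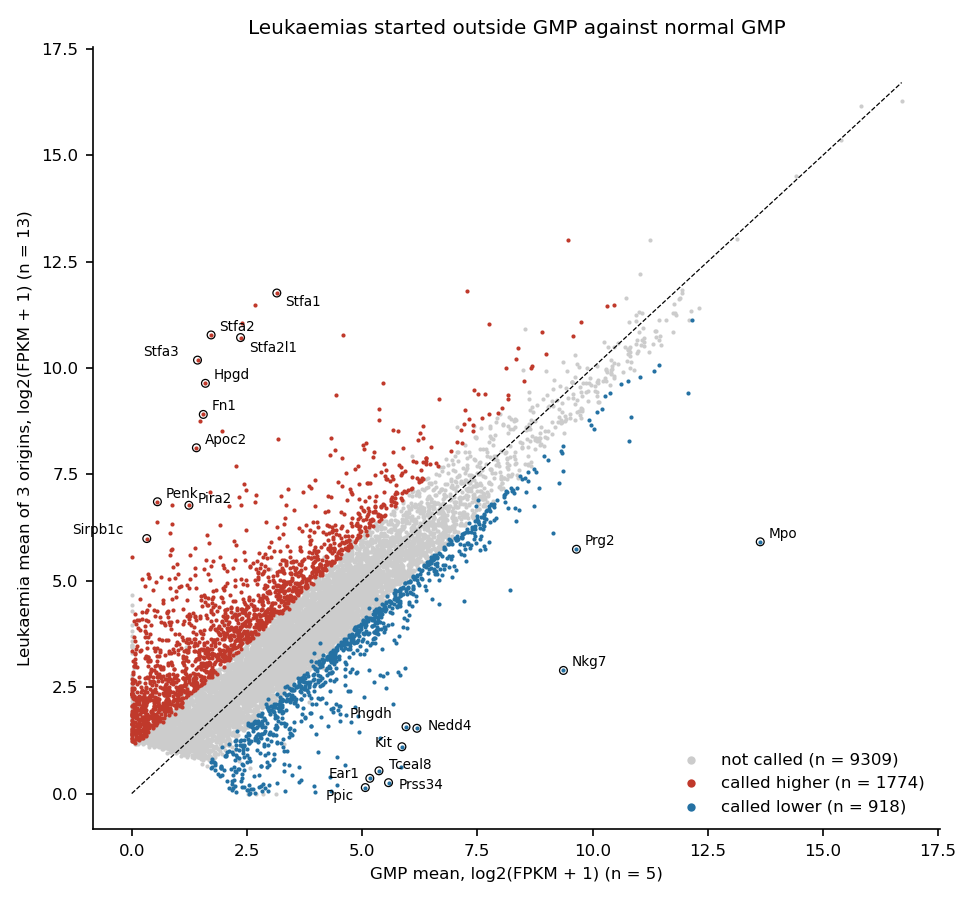
Mean of the 3 leukaemia origins (vertical axis, n = 13) against the mean of normal GMP (horizontal axis, n = 5), both in log2(FPKM + 1), for the 12001 genes tested. Each point is a gene, the dashed line marks equal levels, 1774 genes called higher lie above it and 918 called lower below it, and the 20 ringed genes are the 10 largest rises and 10 largest falls, predicted gene models left out.

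The HOXA genes and their cofactor Meis1, which MLL fusions hold active, were used to see whether samples labelled leukaemia stood apart from GMP. In the 7 Hoxa genes tested and in Meis1 every leukaemia lay above every GMP sample. No normal cell of the 3 starting types was compared, so neither the labels of origin nor the part of the fusion was tested. Of 11 Hoxa genes 4 were below the filter, and all 7 tested rose, with a median log2 change of 2.21 against 0.08 over all genes. Members near 0 in GMP, such as Hoxa10, passed the filter only through the leukaemias, so the filter partly set this count. Hoxa9 (ENSMUSG00000038227, chromosome 6, 52173099 to 52181088 in mm9), a homeobox factor that sustains self-renewal in these leukaemias, had lowest, median and highest values of 14.5, 25.2 and 54 FPKM in the leukaemias and 3.97, 2.79, 2.76, 2.96 and 2.57 FPKM in the GMP samples (log2 change 2.72 ± 0.22, adjusted p = 1.01e-08). No leukaemia reached down to the GMP range. Hoxa10 rose from near absence: 0.08, 0, 0.11, 0.13 and 0.18 FPKM in GMP against 6.47, 13.7 and 25.8 FPKM as the lowest, median and highest leukaemia (log2 change 3.68 ± 0.22, adjusted p = 2.33e-10).

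Meis1 (ENSMUSG00000020160, chromosome 11, 18780433 to 18918961), the DNA-binding partner of HOXA9, measured 35.4, 52.4 and 95.5 FPKM at the lowest, median and highest leukaemia and 5.19, 3.52, 10.5, 7.56 and 7.98 FPKM in GMP (log2 change 2.81 ± 0.23, adjusted p = 1.27e-08). Its groups stood apart as well, with MPP:MA9 replicate 2 the highest. Eya1, a phosphatase and transcriptional cofactor, was the steadiest of these genes across leukaemias, at 24.2–34.6 FPKM against 0.78–1.91 in GMP (log2 change 3.71 ± 0.12, adjusted p = 7.28e-14). Among 19 tested cofactors and stem-cell regulators used by MLL fusions, 7 rose, including Pbx3 (2.57 ± 0.42), Runx2 (1.80 ± 0.15), Mef2c (1.39 ± 0.16) and Jmjd1c (1.31 ± 0.15), and 5 fell, including Tal1 (-2.77 ± 0.14), Hlf (-2.28 ± 0.21) and Msi2 (-1.36 ± 0.31). Myb, a factor that keeps progenitors cycling, also fell (-1.17 ± 0.25), but its change was -0.93 without STHSC:MA9 replicate 1 and then missed the fold threshold.

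Mecom, the stem-cell factor also called EVI1, was called higher on the mean of origins (log2 change 2.19 ± 0.75, adjusted p = 0.0159), but the origins did not share it. The STHSC:MA9 samples held 11.8, 32.2 and 31.9 FPKM, the MPP:MA9 samples 0.3–62 FPKM, and CMP:MA9 held 0.03, 2.65, 0 and 0 FPKM beside 0.22–0.99 FPKM in GMP. The call was lost with a pseudocount of 0.1 (adjusted p = 0.0531) and with the 13 leukaemias as 1 group (adjusted p = 0.0638). Of the 15 tested genes for MLL, its fusion partners and the DOT1L complex, 6 were kept at the GMP level by the interval rule given further on (20.7% of all genes tested), Dot1l among them (-0.06 ± 0.13). Mll1 (2.12 ± 0.29) and Mllt3 (2.60 ± 0.38), the genes at both ends of the fusion, were the members that rose, to 46–203 and 22.7–235 FPKM from 11.5–19.7 and 5.39–8.34 FPKM. MPP:MA9 replicate 2 was highest for both. How many of these reads came from the retroviral fusion was not tested.

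The primary granule programme that marks GMP was largely lost. Of 20 tested genes of the primary granule and promyelocyte stage 13 fell and 2 rose, with a median log2 change of -1.64. Mpo (ENSMUSG00000009350, chromosome 11, 87607083 to 87617915), which encodes myeloperoxidase, measured 14354, 14026, 12449.9, 10745 and 12230.5 FPKM in GMP and 18.2, 40.1 and 163 FPKM at the lowest, median and highest leukaemia (log2 change -8.01 ± 0.37, adjusted p = 1.22e-11). It was the largest fall named, and no leukaemia came near the GMP range. Elane (ENSMUSG00000020125, chromosome 10, 79349057 to 79350961), neutrophil elastase, fell less evenly, from 6449, 4386, 3724, 3078 and 3872 FPKM in GMP to 84.6, 530.1 and 1637 FPKM at the lowest, median and highest leukaemia (log2 change -3.03 ± 0.49, adjusted p = 3.52e-05). The groups did not overlap, but the ratio of the highest to the lowest value was wider among the leukaemias than in GMP.

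The other serine proteases of this granule moved the same way. Prtn3 (proteinase 3) fell from 1438–2542 to 209–730.1 FPKM (-2.04 ± 0.22), and Ctsg (cathepsin G) from 1510.5–1986 to 20.4–831 FPKM (-2.92 ± 0.49). Nkg7, a granule membrane protein, fell from 610.0–773 to 0.41–23.5 FPKM (-6.95 ± 0.51), and Ms4a3, a surface protein of GMP, from 513–606 to 0.22–205 FPKM (-4.15 ± 0.86). The members that rose were Slpi (2.03 ± 0.23), an inhibitor of elastase and cathepsin G, and Hp (1.87 ± 0.14), haptoglobin. By origin, 8 members were called lower in STHSC:MA9, 13 in MPP:MA9 and 15 in CMP:MA9, counts that were not tested against each other. Elane showed the same order of group means, 1071 ± 674 FPKM in STHSC:MA9 (SD, n = 3), 602 ± 405 in MPP:MA9 (n = 6) and 372 ± 222 in CMP:MA9 (n = 4), with ranges that overlapped, and the difference among origins did not pass the test (limma F test, adjusted p = 0.314).

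The promoters of Mpo and the 3 proteases and of a pair of stefin A genes, described next, are shown because the former encode the defining granule enzymes of GMP that fell and the latter belong to the cluster with the largest rises. Each runs from 250 bases before to 50 after the start site in RefSeq on GRCm38.p6, read 5′ to 3′ in the sense of the gene: Mpo at chr11:87793534-87793833, plus strand, Elane at chr10:79886062-79886361, plus strand, Prtn3 at chr10:79879417-79879716, plus strand, Ctsg at chr14:56102525-56102824, minus strand, Stfa1 at chr16:36276898-36277197, plus strand, and Stfa2 at chr16:36408314-36408613, minus strand. Capitals mark matches on either strand to GAGGAA (a core bound by PU.1, reverse complement TTCCTC) and to TTGCNNAA (a core bound by C/EBP factors, reverse complement TTNNGCAA).
Mpo: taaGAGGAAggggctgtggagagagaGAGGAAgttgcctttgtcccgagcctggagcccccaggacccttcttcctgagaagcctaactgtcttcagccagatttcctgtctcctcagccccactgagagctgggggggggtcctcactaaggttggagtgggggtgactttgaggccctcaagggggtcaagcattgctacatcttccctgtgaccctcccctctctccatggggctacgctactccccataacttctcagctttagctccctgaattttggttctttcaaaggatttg
Elane: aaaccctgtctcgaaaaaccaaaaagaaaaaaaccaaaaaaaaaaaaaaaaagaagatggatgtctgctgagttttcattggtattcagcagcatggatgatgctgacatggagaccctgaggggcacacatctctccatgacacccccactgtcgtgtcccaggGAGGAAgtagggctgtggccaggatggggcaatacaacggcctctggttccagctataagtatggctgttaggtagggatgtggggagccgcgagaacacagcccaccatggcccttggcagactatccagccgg
Prtn3: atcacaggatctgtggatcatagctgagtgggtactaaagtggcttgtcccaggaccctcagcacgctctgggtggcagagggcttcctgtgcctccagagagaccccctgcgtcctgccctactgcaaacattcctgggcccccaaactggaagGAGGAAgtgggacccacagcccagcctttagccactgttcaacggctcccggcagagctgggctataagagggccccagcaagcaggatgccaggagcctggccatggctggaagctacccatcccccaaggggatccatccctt
Ctsg: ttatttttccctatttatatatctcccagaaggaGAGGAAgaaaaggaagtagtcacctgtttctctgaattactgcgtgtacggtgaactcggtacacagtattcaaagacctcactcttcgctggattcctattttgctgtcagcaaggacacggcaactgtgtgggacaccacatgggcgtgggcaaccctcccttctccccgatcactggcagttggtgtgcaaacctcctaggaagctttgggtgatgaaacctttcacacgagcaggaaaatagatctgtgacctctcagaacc
Stfa1: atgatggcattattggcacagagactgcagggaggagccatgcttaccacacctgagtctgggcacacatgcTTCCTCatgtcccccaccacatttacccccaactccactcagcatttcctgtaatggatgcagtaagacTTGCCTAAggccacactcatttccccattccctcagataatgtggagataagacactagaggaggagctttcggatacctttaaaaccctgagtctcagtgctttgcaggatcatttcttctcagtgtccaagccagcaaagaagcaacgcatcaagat
Stfa2: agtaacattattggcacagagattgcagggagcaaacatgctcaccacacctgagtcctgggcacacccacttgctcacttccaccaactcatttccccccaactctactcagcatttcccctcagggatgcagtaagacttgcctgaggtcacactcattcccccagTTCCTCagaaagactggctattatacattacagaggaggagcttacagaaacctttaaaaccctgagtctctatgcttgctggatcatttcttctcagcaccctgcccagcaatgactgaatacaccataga
All 4 granule enzyme promoters and both stefin promoters held GAGGAA, with 2 matches in Mpo, as do 28.3% of 32851 mouse promoters of the same length. TTGCNNAA was present in the window of Stfa1 and absent from those of Stfa2 and the 4 granule enzymes, and 10.8% of all promoters hold it. No match overlapped one of the other motif. A match describes the letters of this window and not occupancy by a factor.

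Stefin A genes, a cluster on chromosome 16 encoding cytosolic inhibitors of cysteine cathepsins, made up 4 of the 10 largest rises, which leave out predicted gene models such as BC100530 and Gm5483. Stfa1 (ENSMUSG00000071562, chromosome 16, 36277213 to 36285457) measured 7.02, 7.24, 8.09, 9.88 and 7.11 FPKM in GMP and 262, 2478 and 11896 FPKM at the lowest, median and highest leukaemia (log2 change 7.99 ± 0.66, adjusted p = 1.62e-08). Stfa2 (8.15 ± 0.83), Stfa2l1 (7.71 ± 0.72), Stfa3 (7.93 ± 0.67), BC100530 (7.98 ± 0.77) and Gm5483 (8.13 ± 0.71) rose with it, and all 6 were apart from GMP in every leukaemia. Over all genes, 31.5% had no overlap in either direction. The copies share sequence: 62.8% of the 31-base words of Stfa1 occur in other genes, against 0% for Stfa3, and the promoters of Stfa2 and Stfa2l1 are 92.9% identical. Reads may therefore have been split between copies, so the level of a single copy is uncertain. The same holds for other genes named below that share sequence, among them Oaz1 (53.8%), Ly6c2 (53.5%), Bcl2a1b (49.8%), Ifitm2 (36.2%), Ubb (34.1%), Lyz2 (32.1%) and Csf2rb (28.2%). Cstb, the widely expressed stefin B, measured 0.83 ± 0.15 and was not called.

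Later granulocyte genes were mixed. Of 24 tested genes of the secondary and tertiary granules and late granulocytes 10 rose and none fell. Only 3 had groups that did not overlap, which held for 31.5% of all genes in either direction. Mmp8 (collagenase) rose from 3.01–13.1 to 20.9–749 FPKM (3.22 ± 0.58), Mmp9 (gelatinase) reached 4.47–313 FPKM from 0.27–7.58 (4.16 ± 0.74), Cd177 50.3–423 from 3.09–19.8 (3.34 ± 0.40) and Lcn2 (lipocalin) 263–11169 from 48.9–393 (2.89 ± 0.69). Ltf (lactoferrin), the defining protein of the secondary granule, was at 0.73, 44.5 and 436 FPKM in the lowest, median and highest leukaemia and at 64.9, 6.41, 46.8, 43.8 and 45.8 FPKM in GMP (log2 change 0.31 ± 0.87, adjusted p = 0.768). S100a8 (calgranulin) likewise held 214–12783 FPKM in the leukaemias around the GMP range of 770.2–4245 (log2 change 0.47 ± 0.81, adjusted p = 0.629). Both groups overlapped for these genes, which neither passed the test nor had intervals narrow enough to be called kept.

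Genes of mast cells, basophils and eosinophils, which branch off near GMP, were low in the leukaemias. Of 21 listed 8 were below the filter, and of the 13 tested 10 fell and none rose, with a median log2 change of -2.84. Members near 0 in the leukaemias, such as Epx and Ear1 below, passed the filter only through GMP, so the filter partly set this count. Prg2 (ENSMUSG00000027073, chromosome 2, 84820618 to 84823789), the major basic protein of eosinophils, measured 711, 291, 1260.2, 1059 and 694 FPKM in GMP and 0.43, 16.8 and 275 FPKM at the lowest, median and highest leukaemia (log2 change -4.99 ± 0.79, adjusted p = 3.02e-05). All leukaemias were below all GMP samples, with CMP:MA9 the highest of the origins at 115 ± 115 FPKM (SD, n = 4) and overlapping the others. Epx (eosinophil peroxidase) fell to 0–0.49 from 9.33–35.7 FPKM (-4.12 ± 0.21), Prss34 (a basophil protease) to 0–0.67 from 30.1–61.3 FPKM (-5.28 ± 0.18), and Ear1, an eosinophil ribonuclease that shares 68.9% of its sequence with paralogues, to 0–1.18 from 8.1–61.7 FPKM (-4.61 ± 0.35).

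**Figure D2:**
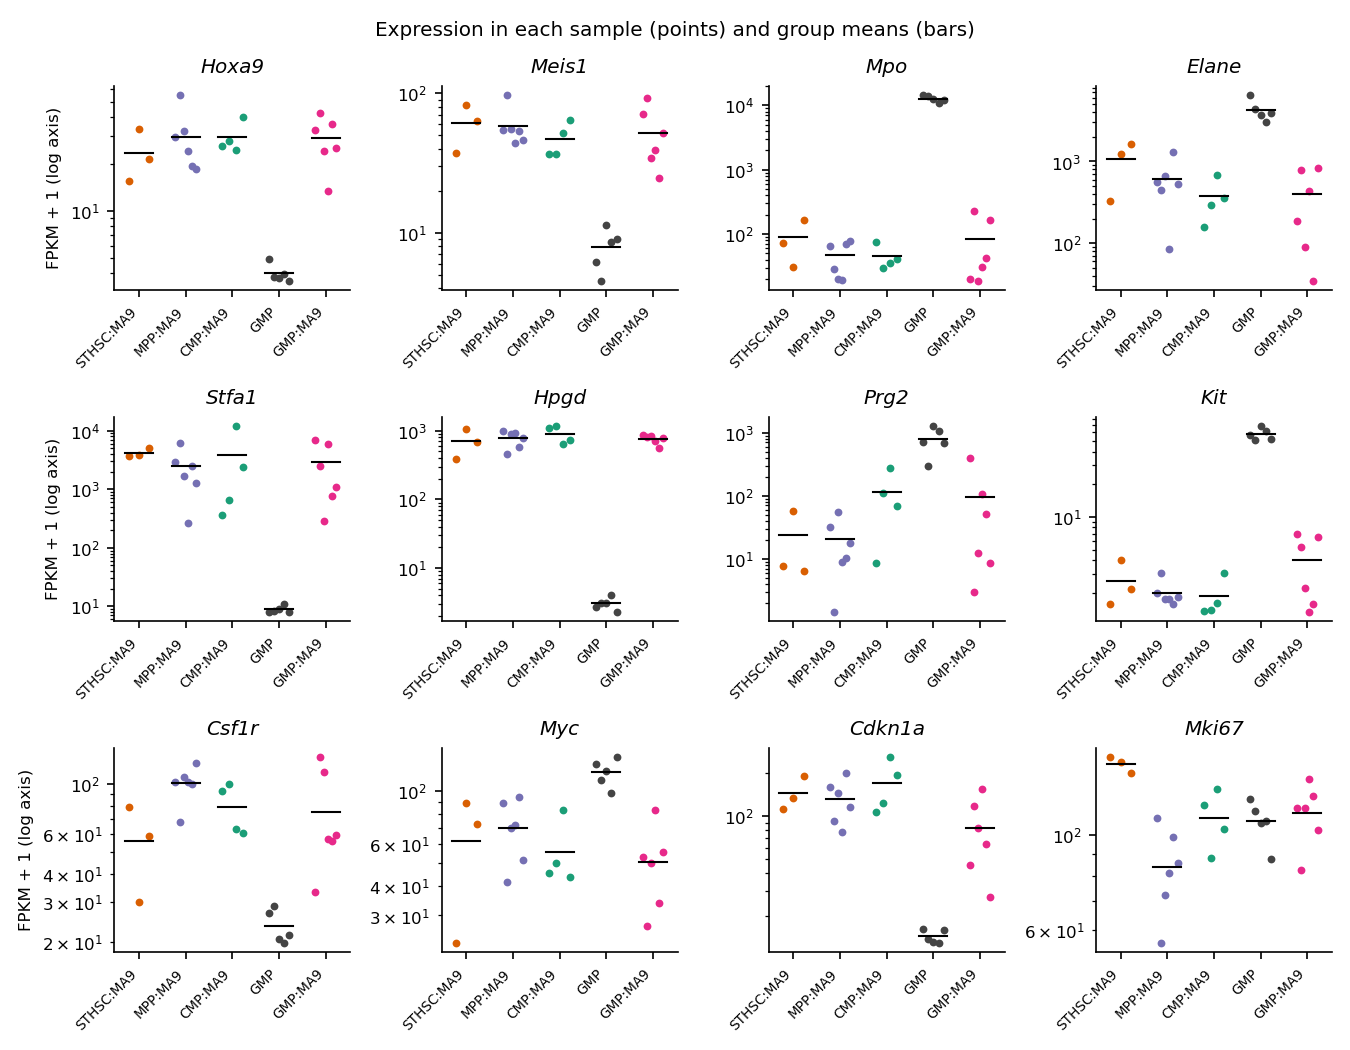
FPKM + 1 of 12 genes in each sample (points) on log vertical axes, with the group means as bars, for 3 STHSC:MA9, 6 MPP:MA9, 4 CMP:MA9, 5 GMP and 6 GMP:MA9 samples. Hoxa9, Meis1, Stfa1, Hpgd, Csf1r and Cdkn1a lie higher and Mpo, Elane, Prg2 and Kit lower in the 13 leukaemias than in all 5 GMP samples, whereas Mki67 overlaps.

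Monocyte and macrophage genes rose broadly. Of 31 tested, 21 rose and 1 fell, with a median log2 change of 1.73. Csf1r, the receptor for macrophage colony-stimulating factor, measured 25.9, 27.9, 19.6, 18.8 and 20.4 FPKM in GMP and 29, 92 and 122 FPKM at the lowest, median and highest leukaemia (log2 change 1.66 ± 0.19, adjusted p = 8.08e-07). The lowest leukaemia, in STHSC:MA9, lay just above the highest GMP sample. Lyz2 (lysozyme) rose from 604–947 to 4368–12733 FPKM (3.48 ± 0.23), Lgals3 (galectin 3) from 5.16–10.6 to 169.5–434 FPKM (5.13 ± 0.13) and Ctss (cathepsin S) from 34–52.9 to 185–698 FPKM (3.36 ± 0.20). The C-type lectins Clec4a1 (4.42 ± 0.35) and Clec4a3 (4.54 ± 0.35) rose too. The member that fell was Ly6c2 (-1.09 ± 0.21), an antigen of inflammatory monocytes that GMP also express, and its call was lost with the 13 leukaemias as 1 group (-0.97) and without GMP replicate 1 (-0.99).

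The rest of the 10 largest rises lay outside the stefin cluster. Hpgd (ENSMUSG00000031613, chromosome 8, 58773349 to 58799843), which inactivates prostaglandins, had the smallest standard error of the 10 largest rises: 1.66, 2.11, 2.08, 3.03 and 1.27 FPKM in GMP and 386, 781 and 1164 FPKM at the lowest, median and highest leukaemia (log2 change 7.99 ± 0.22, adjusted p = 1.46e-14). Its values in the leukaemias spanned a narrower range than those of the stefin genes, and none approached GMP. Fn1 (fibronectin) reached 66–1308 FPKM from 1.47–2.63 (6.86 ± 0.51), Apoc2 (an activator of lipoprotein lipase) 109–532 FPKM from 0.4–3.87 (6.74 ± 0.30), and Penk (proenkephalin) 10.8–306 FPKM from 0.2–0.81 (5.46 ± 0.65). The paired receptors Pira2 (5.46 ± 0.25), which shares 55.3% of its sequence with related genes, and Sirpb1c (5.43 ± 0.33) completed those 10.

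Transcription factors of the myeloid lineages rose in part. Of 29 tested, 14 rose and none fell. Irf5 (3.10 ± 0.21) and Klf4 (1.39 ± 0.27), factors of monocytes and macrophages, Id2 (3.33 ± 0.44), an inhibitor of helix-loop-helix factors, and Rara (3.04 ± 0.25), the retinoic acid receptor that drives granulocyte maturation, were among them. Sfpi1, which encodes PU.1, rose from 56.7–99 to 127–296 FPKM (log2 change 1.57 ± 0.11, adjusted p = 1.43e-09), without overlap. Cebpa, which is needed to form GMP, measured 10.6, 15.8 and 21.1 FPKM at the lowest, median and highest leukaemia and 21, 20.5, 20.6, 18.1 and 19.1 FPKM in GMP (log2 change -0.41 ± 0.13, adjusted p = 0.00842), with overlapping groups and a change under the fold threshold. Irf8, a monocyte factor, measured 24.9–179.6 FPKM against 34.6–60.3 FPKM (log2 change 0.55 ± 0.24, adjusted p = 0.0545), again overlapping. Gfi1, a repressor of monocyte genes in granulocyte progenitors, had a log2 change of -1.09 ± 0.51 (adjusted p = 0.0703), which passed only under other settings such as the correction for GC content (-1.41).

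Most cytokine receptors that were called rose. Of 23 tested cytokine and growth factor receptors 12 rose and 1 fell, and the one that fell was Kit (ENSMUSG00000005672, chromosome 5, 75970941 to 76052747), the receptor for stem cell factor. It measured 56.2, 50.6, 67.4, 60.3 and 51.5 FPKM in GMP and 0.37, 0.76 and 2.97 FPKM at the lowest, median and highest leukaemia (log2 change -4.85 ± 0.21, adjusted p = 6.45e-12), a gap without overlap in a gene on which GMP were sorted. Csf2ra (2.27 ± 0.10) and Csf2rb (1.04 ± 0.07), both chains of the GM-CSF receptor, rose (Csf2rb not past the fold threshold with median-ratio scaling, 0.96, with the GC and length correction, 0.80, or without GMP replicate 4, 0.99), as did Il17ra (2.26 ± 0.16), Il10ra (1.88 ± 0.22) and Ifngr2 (1.74 ± 0.13). Flt3 rose on average (2.53 ± 0.49) but its leukaemia range of 1.15–107 FPKM reached into the GMP range of 0.91–2.84. Of 16 feedback and phosphatase genes 7 rose, led by Bcl6 (2.56 ± 0.16), Dusp6 (2.10 ± 0.29) and Ptprc (2.12 ± 0.10), and none fell.

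Among 30 adhesion genes tested 10 rose and 2 fell, 33.3% and 6.67% against 14.8% and 7.65% of all genes. The falls were thus no more frequent than over all genes. Itgam (CD11b), which the gate excludes from GMP, went from 15.5–28.7 to 183–536 FPKM (3.65 ± 0.17), its partner chain Itgb2 rose (3.31 ± 0.14), and so did Adam8 (4.31 ± 0.37), a membrane protease, and Ccr1 (3.64 ± 0.13), a chemokine receptor. Cd34, also part of the gate, fell from 70–98.3 to 4.89–65 FPKM (-1.90 ± 0.40), and S1pr3, a sphingosine phosphate receptor, fell (-1.61 ± 0.18). Fcgr3, which encodes the low-affinity IgG receptor of the gate, measured 137–230.3 FPKM in the leukaemias and 129.6–189.5 in GMP (log2 change 0.36 ± 0.10, adjusted p = 0.00539), below the fold threshold. Of 10 surface genes of the sort, 2 rose and 2 fell, 20% in each direction against 14.8% and 7.65% of all genes.

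Genes that phagocytes use to sense and kill microbes rose as well. Of 22 Toll-like receptors and adaptors 14 rose and none fell, with a median log2 change of 1.45. Tlr13, a sensor of bacterial ribosomal RNA, reached 26.2–131 FPKM from 0.39–1.52 (5.18 ± 0.28), and Tlr7 (3.33 ± 0.32), Tlr8 (2.83 ± 0.31) and Tlr9 (2.32 ± 0.26), which sense nucleic acids in the endosome, rose as well. Genes of the phagocyte oxidase that rose included Cybb (2.70 ± 0.18), Cyba (1.64 ± 0.12), Ncf1 (1.60 ± 0.17) and Ncf4 (1.92 ± 0.14). Among 23 oxidase and antioxidant genes, 10 rose in all, Hmox1 (haem oxygenase) the most (4.12 ± 0.40), while Txn1 (thioredoxin, -1.24 ± 0.11) and Prdx2 (peroxiredoxin, -1.04 ± 0.18) fell, Prdx2 not past the fold threshold without STHSC:MA9 replicate 1 (-0.94) or CMP:MA9 replicate 4 (-0.99). Of 33 proton pump and lysosomal genes 11 rose, mostly cathepsins and other hydrolases such as Lgmn (2.63 ± 0.20) and Ctsa (2.10 ± 0.19), and 1, Cd63 (-1.45 ± 0.41), fell.

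Lipid mediators and inflammatory genes were changed in part. Of 21 eicosanoid genes 8 rose, Alox5 (5-lipoxygenase, 2.65 ± 0.39), Alox5ap (1.36 ± 0.12) and Ptges (prostaglandin E synthase, 1.59 ± 0.28) among them beside Hpgd, and 2 fell, Ptges3 (-1.16 ± 0.16) and Ptgr1 (-1.07 ± 0.22), neither of which passed the fold threshold with the GC and length correction (-0.92 and -0.995). Of 23 cytokine, chemokine and NF-kB feedback genes 10 rose and none fell, led by Ccl6 (4.63 ± 0.33), Il1rn (the interleukin 1 antagonist, 3.64 ± 0.55) and Nlrp3 (2.27 ± 0.22). Genes that respond to cell handling also differed between the groups. Of 23 immediate early and stress genes 12 rose, Nr4a1 (3.42 ± 0.36), Klf2 (3.08 ± 0.34) and Egr1 (2.03 ± 0.67) among them, and 4 fell, namely Fosb (-1.72 ± 0.61), Jun (-1.40 ± 0.40), Hsp90aa1 (-1.30 ± 0.20) and Gadd45b (-1.10 ± 0.19). Without GMP replicate 2 only 2 of these 4 were called, as Fosb (adjusted p in limma 0.0953) and Jun (-0.96) were lost. Fosb was also lost without GMP replicate 1 (adjusted p in limma 0.0561) and Gadd45b without STHSC:MA9 replicate 1. The summed level of the whole list ran from 1403.9 to 2084.5 FPKM in the leukaemias and from 1964.7 to 3145.6 FPKM in GMP, ranges that overlapped, and the part of handling in the inflammatory values was not tested.

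**Figure D3:**
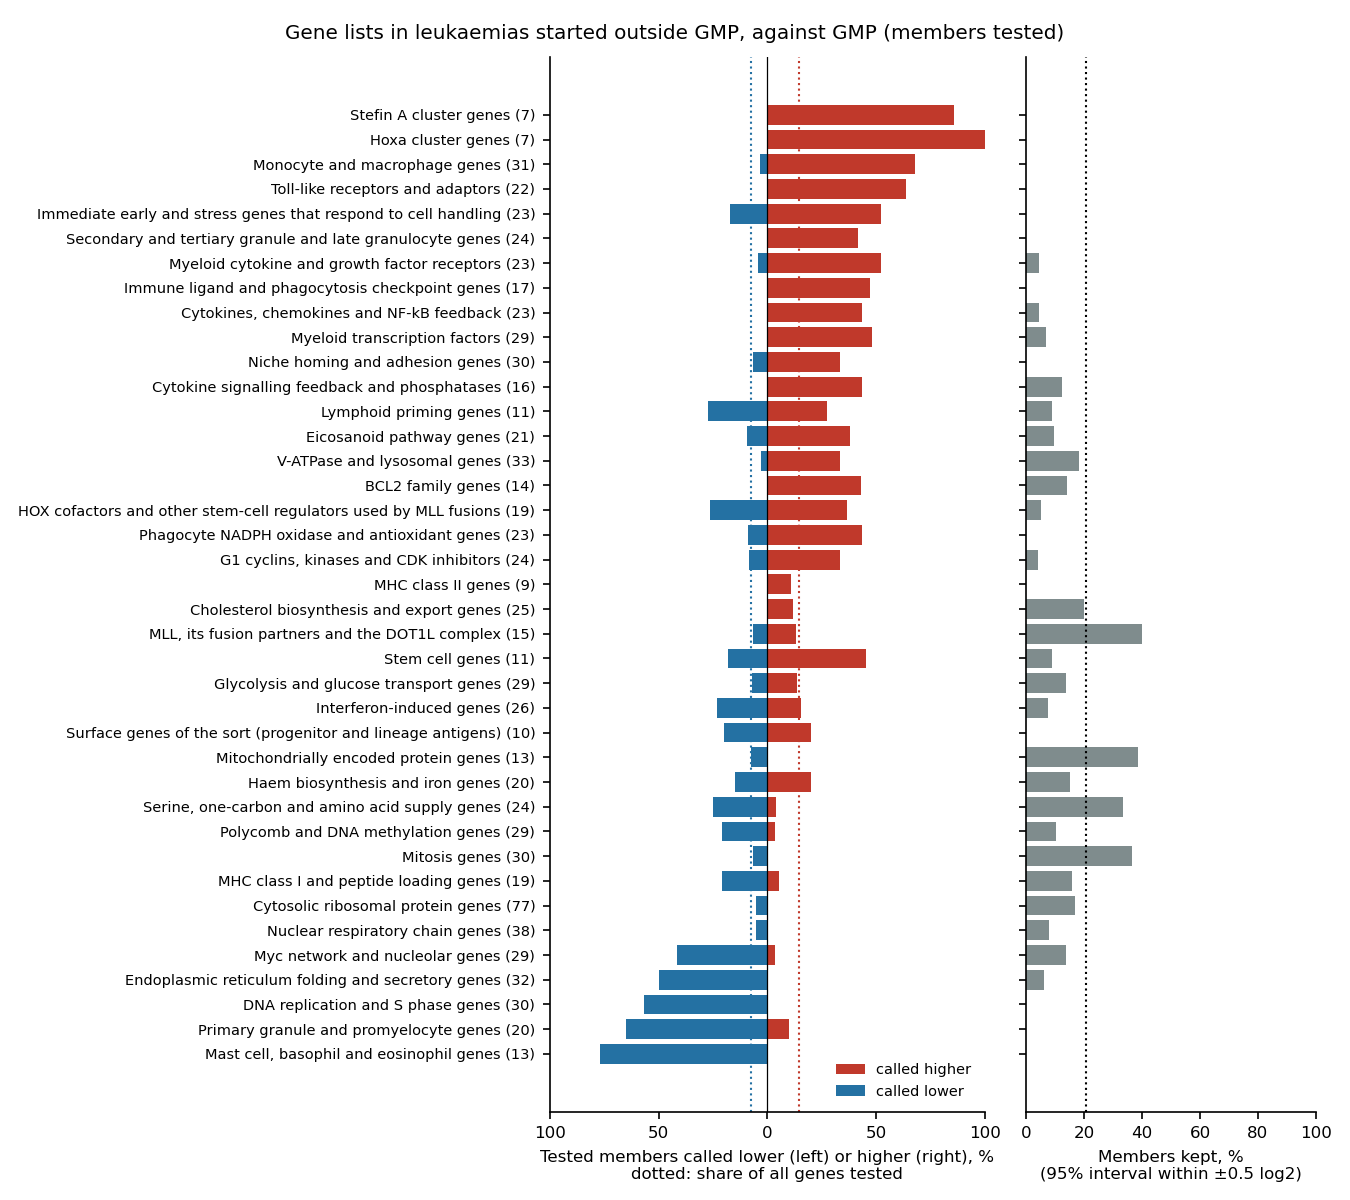
Share of the tested members (number in brackets) of 39 gene lists called lower (left, blue) or higher (right, red) in the mean of the 3 leukaemia origins against GMP, in percent, and in the right panel the share kept at the GMP level. Dotted lines mark the shares over all 12001 genes tested (7.65% lower, 14.8% higher, 20.7% kept), and the Hoxa and stefin lists lie at the top and the mast cell, basophil and eosinophil list at the bottom.

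Genes of DNA replication were lower in the leukaemias. Of 30 DNA replication genes 17 fell and none rose, with a median log2 change of -1.07. In 25 of them every leukaemia lay below every GMP sample, which held for 14.5% of all genes. Dut, the enzyme that keeps uracil out of DNA, measured 211, 204, 199, 169 and 213 FPKM in GMP and 23.5, 54.3 and 92.4 FPKM at the lowest, median and highest leukaemia (log2 change -1.90 ± 0.21, adjusted p = 4.34e-07). Other members that fell were Cdc6 (-1.55 ± 0.18), which loads the replicative helicase, Tyms (-1.44 ± 0.21) and the helicase subunits Mcm3 (-1.06 ± 0.17), Mcm4 (-1.21 ± 0.16) and Mcm6 (-1.12 ± 0.17). Pcna, the sliding clamp, fell by this test (-1.08 ± 0.15) but changed by -0.86 with the correction for GC content and transcript length, under the fold threshold.

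Of 30 mitosis genes 2 fell (6.67%, against 7.65% of all genes), none rose and 11 were kept on the mean of origins. Of the changes 25 were below 0 and 5 above, and 15 genes were lower without the fold threshold. By origin, 0 were called lower in STHSC:MA9, 6 in MPP:MA9 and 2 in CMP:MA9, with medians of -0.02, -0.58 and -0.40. These were not tested against each other. Mki67, the antigen of cycling cells, measured 54.9, 102 and 151 FPKM at the lowest, median and highest leukaemia and 120.4, 112, 106, 107 and 86.9 FPKM in GMP (log2 change 0.03 ± 0.13, 95% interval -0.24 to 0.30). The leukaemia range enclosed the GMP range, and the origins differed from one another, with means of 145 ± 6.42 FPKM (SD, n = 3) in STHSC:MA9 and 82.9 ± 18.9 (n = 6) in MPP:MA9 (F test in limma, adjusted p = 0.01). The members that fell were Ttk (-1.08 ± 0.16) and Mad2l1 (-1.14 ± 0.15), both of the spindle checkpoint, and with the GC and length correction both changed by -0.91 and neither was called.

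Among 24 regulators of G1 tested 8 rose and 2 fell, 33.3% and 8.33% against 14.8% and 7.65% of all genes. Ccnd2 (cyclin D2, ENSMUSG00000000184, chromosome 6, 127075797 to 127101066) measured 28.1, 28, 31.9, 29.2 and 28.9 FPKM in GMP and 0.58, 1.83 and 5.39 FPKM at the lowest, median and highest leukaemia (log2 change -3.25 ± 0.32, adjusted p = 1.23e-07). Cyclin D3 moved the other way: Ccnd3 rose from 26.6–46.4 to 115–258 FPKM (2.17 ± 0.12). Both pairs of groups were apart. Their kinase Cdk4 fell (-1.63 ± 0.16) and Cdk6 was not called (0.29 ± 0.25).

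The G1 genes that rose included inhibitors of these kinases. Cdkn1a (p21, ENSMUSG00000023067, chromosome 17, 29227924 to 29237667) measured 15.3, 12.9, 12.3, 12 and 14.9 FPKM in GMP and 75.8, 132 and 256.4 FPKM at the lowest, median and highest leukaemia (log2 change 3.29 ± 0.21, adjusted p = 8.61e-10), without overlap. Cdkn2c (2.17 ± 0.23), Cdkn2b (1.45 ± 0.24) and Cdkn1b (1.196 ± 0.11) rose as well. Of 14 genes of the BCL2 family 6 rose and none fell. They held both protective members, Mcl1 (1.35 ± 0.11) and Bcl2a1b (2.62 ± 0.47), and death-promoting ones, Bmf (3.11 ± 0.28) and Pmaip1 (3.15 ± 0.19).

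Genes of the Myc network were lower in part. Of 29 Myc network and nucleolar genes 12 fell, with a median of -0.81, and the member that rose was Mxd1 (1.35 ± 0.23), an antagonist of Myc. Myc itself measured 129, 109, 119.8, 96.8 and 137 FPKM in GMP and 22, 68.5 and 93.5 FPKM at the lowest, median and highest leukaemia (log2 change -1.04 ± 0.26, adjusted p = 0.00178), groups that did not overlap. Its change was -0.84 without STHSC:MA9 replicate 1, the sample with the lowest value, and was then below the fold threshold, as it was without GMP replicate 5 (-0.99) or MPP:MA9 replicate 2. Gnl3 (-1.74 ± 0.20), Dkc1 (-1.57 ± 0.20), Nop58 (-1.55 ± 0.20) and Npm1 (-1.30 ± 0.16), all of the nucleolus, fell.

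Few ribosomal protein genes were called, and more of the secretory genes. Of 77 genes for cytosolic ribosomal proteins 4 fell, a smaller share than the 7.65% of all genes, and the median change was -0.46. In 35 of them every leukaemia lay below every GMP sample, which held for 14.5% of all genes. Rps2 showed the largest change (-1.43 ± 0.16) and shares 47.7% of its sequence with other annotated genes, so its level is uncertain. Of 32 folding and secretory genes of the endoplasmic reticulum, 16 fell and none rose, with a median of -1.004. Hspa5 (BiP) measured 233–335 FPKM against 549–799.5 in GMP (-1.18 ± 0.09), and Calr (calreticulin, -2.02 ± 0.16), Pdia4 (-1.61 ± 0.14), Manf (-1.58 ± 0.13) and Ssr2 (-1.60 ± 0.08) fell further. In 27 of the 32 every leukaemia lay below every GMP sample, again against 14.5% of all genes.

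Of 38 nuclear genes of the respiratory chain 2 fell, Ndufa4 (-1.26 ± 0.12) and Atp5o (-1.02 ± 0.13), or 5.26% against 7.65% of all genes. In 23 all leukaemias were below GMP, which held for 14.5% of all genes, and the median was -0.67. Atp5o was not called with the replicate block, with the GC and length correction or without STHSC:MA9 replicate 1 (-0.96), MPP:MA9 replicate 2 or CMP:MA9 replicate 1. Atp5b, the catalytic subunit of ATP synthase, stood just inside the fold threshold (-0.98 ± 0.13) and passed it with median-ratio scaling (-1.06). The 13 genes encoded in mitochondrial DNA had a median change of 0.00 whose sign depended on the setting, 5 of them were kept, and the one that fell was mt-Nd3 (-1.37 ± 0.11). Of 29 glycolysis and glucose transport genes 4 rose and 2 fell, 13.8% and 6.90% against 14.8% and 7.65% of all genes. The lactate exporter Slc16a3 (MCT4) rose (2.60 ± 0.16), whereas Slc16a1 (MCT1) fell from 20.6–26 to 0.46–5.03 FPKM (-2.89 ± 0.21).

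Phgdh, the enzyme that commits glucose carbon to serine, measured 65.5, 65.9, 62.4, 49.3 and 61.5 FPKM in GMP and 0.6, 2.1 and 3.92 FPKM at the lowest, median and highest leukaemia (log2 change -4.46 ± 0.22, adjusted p = 2.62e-11). It was among the 10 largest falls, without overlap, and 48% of its sequence recurs in other annotated genes. Of 24 genes of serine, one-carbon and amino acid supply 6 fell, Shmt1 (-1.36 ± 0.20), Mthfd1 (-1.34 ± 0.14) and Shmt2 (-1.11 ± 0.17) with it, 1, Glul (glutamine synthetase, 1.02 ± 0.30), rose, which did not pass the fold threshold with median-ratio scaling (0.94), the GC and length correction (0.98) or any 1 of 5 samples left out (0.78 without STHSC:MA9 replicate 1), and 8 were kept, 5 of them aminoacyl-tRNA synthetases. Of 25 cholesterol genes 3 rose (1 with the correction for GC content), including Apoe (2.23 ± 0.51), and none of the synthetic enzymes was called. These rises are 12% of the list, against 14.8% of all genes. Tfrc, the transferrin receptor, fell from 45.5–54.6 to 5.5–22.8 FPKM (-2.24 ± 0.27), and Slc11a1, an iron and manganese transporter of phagosomes, rose (3.38 ± 0.33). Of 20 haem and iron genes 4 rose and 3 fell, 20% and 15% against 14.8% and 7.65% of all genes.

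**Figure D4:**
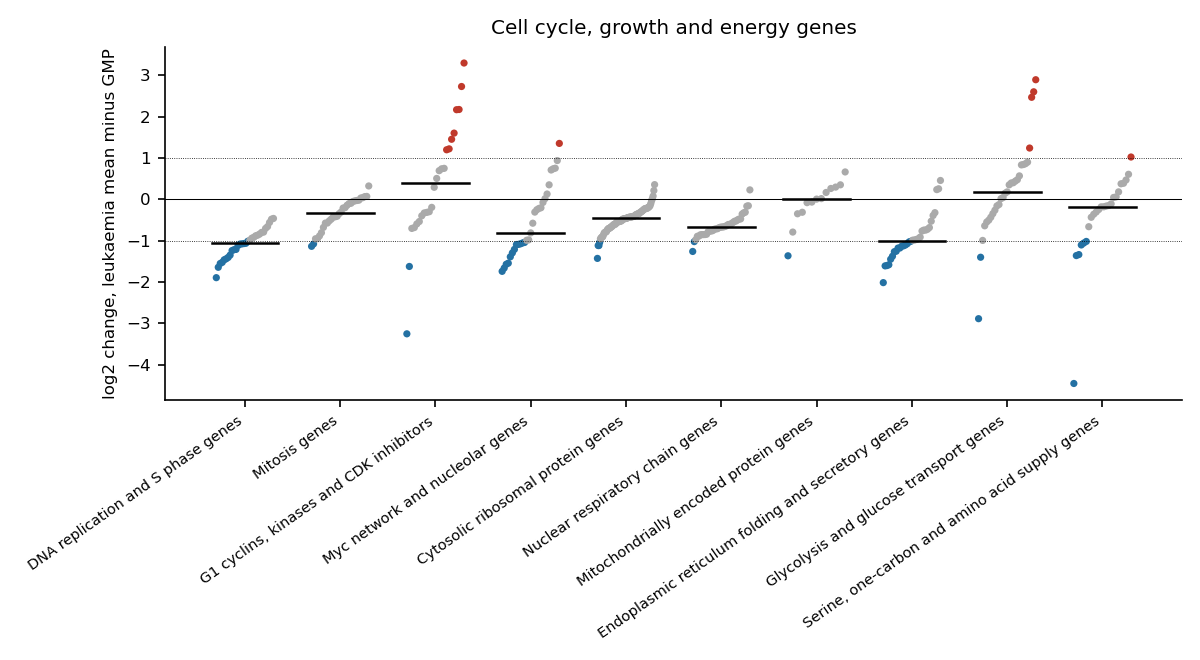
Log2 change of the leukaemia mean against GMP (vertical axis) for each tested member (points) of 10 lists of cell cycle, growth and energy genes, with the median of each list as a bar and dotted lines at the fold thresholds of -1 and 1. Red points were called higher and blue points lower; replication and endoplasmic reticulum medians lie at -1.07 and -1.004, the mitosis median at -0.33 and the mitochondrially encoded median at 0.00.

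The remaining falls among the 10 largest were Ppic (-4.93 ± 0.12), a cyclophilin of the secretory pathway, Tceal8 (-4.90 ± 0.23) and Nedd4 (-4.75 ± 0.26), a ubiquitin ligase. Ppic was at 26.8–35 FPKM in GMP and at most 0.33 FPKM in any leukaemia. Of 29 Polycomb and DNA methylation genes 6 fell, among them Idh2 (-2.25 ± 0.15), a mitochondrial isocitrate dehydrogenase, Tet1 (-2.19 ± 0.36), which oxidises methylcytosine, and Dnmt3b (-1.48 ± 0.15), and 1, Cbx7 (1.35 ± 0.19), rose. The falls were 20.7% and the rise 3.45% of the list, against 7.65% and 14.8% of all genes. Lymphoid priming genes moved both ways: Bcl11a (-2.90 ± 0.35) and Cd27 (-2.28 ± 0.18) fell and Ikzf2 (2.29 ± 0.24) rose. Of 11 tested 3 were higher and 3 lower, 27.3% each against 14.8% and 7.65% of all genes. Of 26 stem cell genes 15 were below the filter. Of the 11 tested 5 rose and 2 fell, 45.5% and 18.2% against 14.8% and 7.65% of all genes. The rises were Txnip (2.24 ± 0.15), Vwf (1.31 ± 0.16, but 0.84 and not called with the GC and length correction), Mllt3, Mecom and Cdkn1c. Mllt3 is part of the fusion, and the share of retroviral reads in it was not tested. The Mecom call was lost under 2 settings, and CMP:MA9 did not share its rise. The falls were Hlf and Angpt1 (-1.50 ± 0.39).

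Antigen presentation and interferon genes gave no common direction. Of 19 MHC class I and peptide loading genes 1 rose, H2-T23 (1.41 ± 0.14), and 4 fell (2 with the 13 leukaemias as 1 group), and B2m was just inside the fold threshold (-0.97 ± 0.16) and passed it with median-ratio scaling (-1.05). The shares of this list called higher and lower were 5.26% and 21.1%, against 14.8% and 7.65% of all genes. Of 9 class II genes only Cd74 was called (log2 change 1.65 ± 0.70, adjusted p = 0.0486), and the call was lost under 6 of the other settings and when any 1 of 12 samples was left out. GMP replicates 1 and 2 held 1.63 and 1.58 FPKM and the other 3 44.5 to 49.1 FPKM, and without replicate 1 the adjusted p in limma was 0.203. Of 26 interferon-induced genes 4 rose and 6 fell, 15.4% and 23.1% against 14.8% and 7.65% of all genes. Ifitm6 went from 14.1–56.7 to 197–1918 FPKM (3.59 ± 0.36), and the GTPases Ifi47 (-2.34 ± 0.25) and Gbp2 (-1.48 ± 0.15) fell. Of 17 immune ligand and checkpoint genes 8 rose, among them Cd300lf (3.00 ± 0.44), Havcr2 (2.13 ± 0.26) and Sirpa (1.79 ± 0.10), and none fell.

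A p that misses the threshold does not show that a gene was kept, so genes were called kept only where the 95% interval of the log2 change lay within -0.5 and 0.5. The interval is that of the mean of origins, so a kept gene can still differ among origins. By that rule 2481 genes (20.7%) were kept at the GMP level, and 6980 (58.2%) had intervals within -1 and 1. The 10 most abundant kept genes, ribosomal and mitochondrially encoded genes left out, were Tpt1 (0.27 ± 0.09), Lars2 (0.14 ± 0.10), Oaz1 (-0.19 ± 0.10), Calm2 (0.07 ± 0.14), Ubb (-0.18 ± 0.11), Ifitm2 (0.04 ± 0.17), Ly6e (-0.05 ± 0.18), Myl12b (0.03 ± 0.11), Srsf5 (-0.01 ± 0.11) and Gpi1 (0.04 ± 0.17). The lists with the largest kept shares were MLL and its partners (6 of 15), mitochondrially encoded genes (5 of 13), mitosis (11 of 30) and amino acid supply (8 of 24). No tested member of the primary granule, stefin, monocyte, replication or Toll-like receptor lists was kept. Among the myeloid transcription factors, Stat5b (0.27 ± 0.09) and Cebpg (0.16 ± 0.14) were kept.

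The origins also differed among themselves. In the F test among the 3 origins 1646 genes (13.7%) passed an adjusted p of 0.05 in limma. Of the 2692 genes called against GMP 467 (17.4%) were among them, which is 28.4% of the 1646, and of the 2481 kept genes 352 (14.2%) were. The 1646 genes were GC-rich, with a median GC content of 54.28% against 49.42% over all genes tested. In 1109 of them MPP:MA9 was highest, and in 1150 STHSC:MA9 was lowest.

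The trend of expression on GC content moved with origin in the same way. Its slope, in log2 per 10 percentage points of GC, was -0.197 to -0.128 in STHSC:MA9, 0.188 to 0.266 in MPP:MA9, 0.00380 to 0.121 in CMP:MA9 and -0.258 to -0.139 in GMP, so that MPP:MA9 and CMP:MA9 lay apart from GMP and STHSC:MA9 overlapped it. With the trends on GC content and transcript length removed, 441 genes in place of 1646 passed the F test, whereas 83.9% of the genes called against GMP were called again. The labels give no library batch for these groups, so library preparation and origin cannot be told apart.

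**Figure D5:**
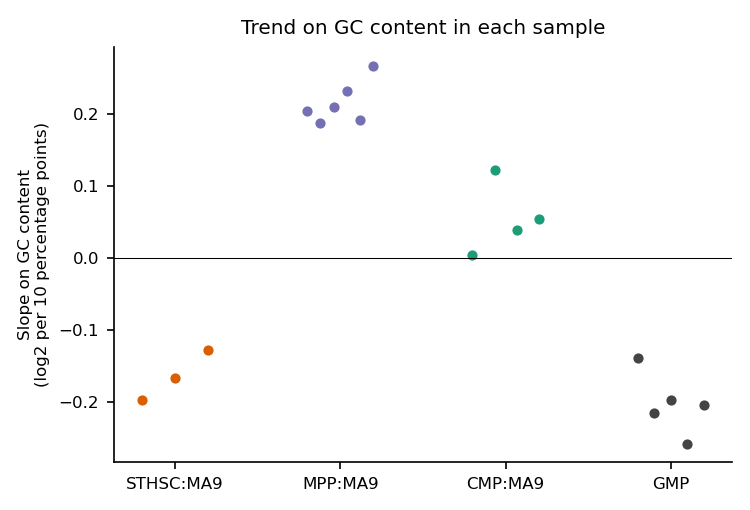
Slope of log2(FPKM + 1) on GC content, in log2 per 10 percentage points, in each of 3 STHSC:MA9, 6 MPP:MA9, 4 CMP:MA9 and 5 GMP samples (points). STHSC:MA9 and GMP lie below 0, MPP:MA9 between 0.188 and 0.266, and CMP:MA9 between.

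The 5 genes of smallest p among origins that were also called against GMP were mt-Nd3, Fbrs, Snx20, Rgs3 and Card9. mt-Nd3, a subunit of complex I encoded in mitochondrial DNA, held 29.6, 24.5, 22.3 and 36.1 FPKM in CMP:MA9, 114, 126 and 132 in STHSC:MA9, 82.5–123 in MPP:MA9 and 164, 179, 190.1, 206 and 167 in GMP (F test in limma, adjusted p = 1.09e-06). CMP:MA9 was below every other sample. Card9, an adaptor for fungal sensing receptors, rose to 52.9 ± 2.08 FPKM (SD, n = 3) in STHSC:MA9, 161 ± 39.2 (n = 6) in MPP:MA9 and 103 ± 12.9 (n = 4) in CMP:MA9 from 30.4 ± 4.3 (n = 5) in GMP. Fbrs, Snx20 and Rgs3 were likewise highest in MPP:MA9, and Fbrs dropped under the fold threshold with the GC correction (0.89). Sfpi1 (adjusted p = 0.000981), Csf2ra (0.000483), Irf8 (0.00888) and Lgals3 (0.00933) also differed among origins in limma's F test.

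Few genes were called between leukaemias started in GMP and the others. Against the mean of the other 3 origins, 82 of 12128 genes (0.676%) were called in GMP:MA9, 34 higher and 48 lower, while 2739 had an unadjusted p below 0.05. Mpo in GMP:MA9 was at 83.4 ± 90.4 FPKM (SD, n = 6), a log2 difference of 0.06 ± 0.53 from the other origins, Hpgd at 766 ± 113 FPKM (0.01 ± 0.21) and Hoxa9 at 28.1 ± 10.2 FPKM (0.06 ± 0.25). Among genes of the lists, Tcf4 was called higher in GMP:MA9 (1.78 ± 0.45), and Thbs1 (-2.003 ± 0.57), Ier2 (-1.13 ± 0.15), Isg20 (-1.03 ± 0.28) and Id1 (-1.02 ± 0.22) lower. Prtn3 differed by -0.996 ± 0.28 (adjusted p = 0.0418), at the fold threshold and not past it.

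Most markers of other cells that a spleen or marrow sort could hold did not reach the filter of 1 FPKM. Of the 15 erythroid, 11 B cell, 15 T and NK cell, 13 megakaryocyte, 17 stromal and 12 dendritic cell markers, 7, 2, 2, 5, 2 and 7 were expressed enough to be tested. Summed over the whole lists, erythroid genes reached 18.99–1022.5 FPKM in the leukaemias and 81.26–375.7 FPKM in GMP, and dendritic genes 107.9–321.5 against 76.1–84.44 FPKM. Haemoglobin reached the highest level of any of them, with Hbb-b1 at 6.55 to 461.9 FPKM in the leukaemias and 44.2 to 189.9 FPKM in GMP. Pax5 was listed at 0 in all 13 leukaemias, whereas Cd79b stood at 13.4 to 63.4 FPKM in the leukaemias and 16.7 to 28.6 FPKM in GMP. Of the 5 tested megakaryocyte markers 3 fell, Pf4 (-3.20 ± 0.52), Itga2b (-2.11 ± 0.32) and Gp9 (-1.03 ± 0.41, lost under 3 other settings and with any 1 of 6 samples left out), and 1, Vwf, rose. The erythroid markers Car1 (-1.73 ± 0.47) and Car2 (-2.33 ± 0.34) fell, the stromal marker Acta2 (1.64 ± 0.32) rose, and the B cell marker Cd22 (1.05 ± 0.29) rose but was not called with the replicate block (0.97) or the GC and length correction (0.90). Of the dendritic markers 4 rose, Flt3, Itgax (1.67 ± 0.19), Cd209a (2.57 ± 0.53) and Sirpa. Gzma reached 20.4 FPKM in 1 leukaemia and no more than 0.21 FPKM in GMP. The part of such cells in the changes above was not tested.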

How the data were processed

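RNA was measured by sequencing amplified cDNA of sorted cells. The authors aligned the reads and estimated expression with RSEM on mm9, per the submitters' processing notes, and deposited FPKM per gene with 2 decimals. FPKM are not counts, so no count test was run. The table has 68 sample columns: 49 carry the name of a labelled sample, and the other 19 were left out. The authors' FPKM were converted here to log2(FPKM + 1). Groups came from the labels. The filter kept genes averaging 1 FPKM or more across the 18 samples.

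Tests were two-sided in limma 3.58.1 (R 4.3.3, lmFit and eBayes with trend) over all 18 samples in 1 fit, with Benjamini-Hochberg adjustment over all genes tested. Each origin had equal weight in the leukaemia mean. GMP:MA9 entered a separate fit of the 4 leukaemia groups. Each p-value tests a difference of group means against the spread within groups, which limma takes as the same in every group of a fit. Calls needed both an adjusted p under 0.05 and an absolute log2 change over 1. On simulated data of 12001 genes for the leukaemia mean against GMP, 185 of 200 genes changed by 1.5 (log2) were recovered with 1 false call, and 198 of 200 changed by 3 with 2 false calls. Without changed genes there was no call. The simulated noise was normal and independent, with 1 spread per gene shared by all groups and no trend on GC content. The real groups differ in spread and in that trend, so the simulation does not give the rate of false calls in these data.

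The 45 gene lists held 1062 symbols, of which 880 genes were tested, 164 were below 1 FPKM and 18 matched no symbol. The members and lists were chosen with earlier results of these data known. Named genes were the 10 largest rises and falls among called genes with a symbol (predicted gene models left out), no overlap between groups and at least 10 FPKM in the higher group, the members of the lists, the 5 called genes of smallest p among origins, and the 10 most abundant kept genes. Coordinates of genes are those of GENCODE M1 (NCBIM37, the assembly of mm9) and promoters those of RefSeq on GRCm38.p6. Relative depth was read from the lowest values of 4035 genes, after subtracting 220 bases from each length, since the smallest step of an FPKM value is 1 fragment. Absolute depth is unknown.

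Alternatives were a pseudocount of 0.1, no filter, median-ratio scaling, leaving out mitochondrial genes, a lowess correction for GC content and transcript length, a replicate block, the 13 leukaemias as 1 group, no fold threshold, and leaving out each sample in turn. Same-numbered samples of different groups had correlations of -0.24 to 0.313 in their deviations. Differently numbered samples were not correlated for comparison, so this range cannot show whether the numbers pair the samples.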

Additional observations from a re-analysis of the deposited data

Results flagged for a closer look

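For 96 genes, each leukaemia group of 4 or more samples and the GMP group was searched for a sample far from the others. Dixon's test at 95% was applied to log2(FPKM + 1), and 24 of 288 groups held one. Chance alone marks about 1 in 20 groups. Values below are given as FPKM, with the nearest other sample of the group in brackets, so gaps look different from those tested. Some flags, such as those for Ppic, Prss34 and Epx in MPP:MA9, fall on values below 1 FPKM. No explanation was weighed for any of them.

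MPP:MA9 replicate 2 stood out most often: highest for Meis1 at 95.48 (54.22), Mmp8 at 748.69 (138.18), Ifitm6 at 1917.87 (581.58), Ccnd3 at 258.42 (188.3), Kit at 2.04 (1.01), Ear1 at 1.18 (0) and Ppic at 0.33 (0.11), and lowest for Csf1r at 67 (98.45). It was also the leukaemia with the lowest correlation with the GMP mean (0.782). In other MPP:MA9 samples, Fn1 was low in replicate 6 at 118.9 (436.55) and Fbrs in replicate 1 at 48.17 (59.32), while Epx at 0.49 (0.11) and Prss34 at 0.36 (0.09) were high, the last pair in replicate 3.

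In CMP:MA9, replicate 3 was high for Ear1 at 1.12 (0), Mcm2 at 30.8 (17.91), Slc16a1 at 5.03 (2.4) and Ppic at 0.22 (0), and low for Cd34 at 24.43 (39.22). Mecom was at 2.65 (0.03) in replicate 2 and Ccnd3 at 123.38 (156.19) in replicate 4.

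In GMP, Nkg7 was highest in replicate 1 at 772.85 (652.77), Phgdh lowest in replicate 4 at 49.34 (61.55), and replicate 2 lowest for Ltf at 6.41 (43.82), Ppic at 26.75 (33.3) and Card9 at 23.01 (30.52).

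The change from GMP differed among the 3 origins for 14 of the 96 genes (limma F test, all sharing the same GMP samples), beside 13.7% of all genes tested. The 14 include mt-Nd3, Fbrs, Snx20, Rgs3 and Card9, which were named for their small p in this same test. The count therefore does not set the 96 genes apart from the rest. The adjusted p was 0.02292 for Mecom, 0.04846 for Csf1r, 0.009332 for Lgals3, 0.008883 for Irf8, 0.0009808 for Sfpi1, 0.005095 for Rara and 0.04015 for Flt3. It was 0.0004825 for Csf2ra, 0.01004 for Mki67, 2.642e-05 for Fbrs, 0.0001704 for Snx20, 0.0002374 for Rgs3, 0.0002603 for Card9 and 1.089e-06 for mt-Nd3.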

How the results depend on the processing

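Counts against GMP moved little: 82.3% to 99.9% of the genes called were called again under the 8 other settings tried, with the split between 1535 higher and 946 lower (block with GC correction) and 2213 higher and 1158 lower (pseudocount 0.1), and 91.2% were called again without STHSC:MA9 replicate 1. Without a fold threshold 7740 genes passed for the leukaemia mean, 5750 for STHSC:MA9, 7576 for MPP:MA9, 6846 for CMP:MA9 and 827 for GMP:MA9 against the other origins. With no filter 10020 genes were kept. For GMP:MA9 against the others, 145 genes were called without mitochondrial genes and 47 with the replicate block and GC correction. The difference among origins depended most on the setting: 441 genes with the GC and length correction, 648 with the replicate block, 65 with the block and the correction together, and 735 to 2158 when 1 sample was left out, the lowest without STHSC:MA9 replicate 3 and 736 without replicate 2. The cause was not tested. Among the gene lists, the count called moved by over 1.5 times in 18 of 90 counts with another setting or a sample left out, 15 of them counts of 2 or fewer. The replicate block took the respiratory chain genes called lower from 2 to 1, the class II and B cell genes called higher from 1 to 0. With the GC and length correction added, the respiratory chain count was 4, the eicosanoid and mitosis genes called lower went from 2 to 0, cholesterol genes called higher from 3 to 1 and myeloid transcription factors called lower from 0 to 1. The block moved no other count of the lists or comparisons by over 1.5 times beyond those given, and whether the numbers pair the samples is not known. Of 183 called genes named, none reversed, 16 lost their call under at least 1 other setting and 13 with a sample left out, 21 in either: Atp5o, Cd22, Cd74, Csf2rb, Fbrs, Fosb, Gadd45b, Glul, Gp9, Jun, Ly6c2, Mad2l1, Mecom, Myb, Myc, Pcna, Prdx2, Ptges3, Ptgr1, Ttk and Vwf. The median of the surface genes of the sort, the mitochondrially encoded, interferon, lymphoid, stem cell and B cell lists changed sign under at least 1 setting. Depth limits low values most in STHSC:MA9.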
